A study of Mus musculus with 6 samples.

Results

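The genes described here are those of the core circadian clock loop in mouse gastrocnemius (GAS) muscle. They were taken by symbol from the deposited gene table: the activators *Arntl*, *Clock* and *Npas2*, the repressors *Per1*, *Per2*, *Per3*, *Cry1*, *Cry2* and *Ciart*, and the deubiquitinase gene *Usp2*. All 10 were found among the 24532 genes of the table, and all 10 passed the filter on low counts as 10 of the 13801 genes tested. RNA was sequenced from GAS muscle of male C57BL/6 mice at about 20 weeks of age, in 3 libraries per group. The WT mice were *Sirt6* flox/flox without Cre. The mice labelled *Sirt6* KO were *Sirt6* flox/flox with *Myl1-Cre*, so both groups carried the floxed alleles. These were the only groups of the series. With no group that carried Cre alone, effects of Cre and of the deletion cannot be told apart. *Myl1-Cre* is driven from the myosin light chain 1 gene and is active mainly in type II (fast) fibres. The study's methods and its reporting summary name different *Sirt6* flox lines. The mice had free access to food on a daily light/dark cycle, and the hour at which each muscle was taken is not given in the sources used here.

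In the molecular clock, ARNTL (also called BMAL1) pairs with CLOCK or with its paralog NPAS2, and the pair binds E-box sequences and activates *Per*, *Cry*, *Ciart* and many output genes. PER and CRY proteins accumulate, enter the nucleus and inhibit the ARNTL pairs, which closes the loop about once a day, and CIART (also called CHRONO) represses the same pairs. *Arntl* is itself held in phase by REV-ERB repressors and ROR activators, so that in skeletal muscle, as in other tissues, *Arntl* and *Npas2* messages peak when those of the *Per* genes are low. *Per1* and *Per2* also respond directly to cAMP and glucocorticoid signals. USP2 removes ubiquitin from clock proteins, and its message is rhythmic in many tissues.

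The total of counts per library lay between 44845763 and 63016899, and 1 count was worth between 0.0165 and 0.0212 normalized CPM. Levels below are normalized CPM, counts scaled to the library total after TMM normalization, unless TPM is named. Fold changes and adjusted p-values are from edgeR's quasi-likelihood test over all 13801 genes with Benjamini-Hochberg adjustment, and a gene is called when its adjusted p is under 0.05. The reporting summary describes the study's replicates in general as biological, but no source used here ties each library to an animal of its own. Each p-value thus sets a difference between the groups against variation between these libraries. *Sirt6*, the targeted gene, was at 2.77, 2.23 and 2.88 CPM in WT libraries 1 to 3 and at 7.81, 7.44 and 6.68 in those labelled *Sirt6* KO, which goes against the labels, so groups are named by their labels and every direction rests on them. Counts per gene do not separate the floxed exons from the rest. The 5 skeletal muscle markers (*Ckm*, *Acta1*, *Myh4*, *Actn3*, *Pvalb*) summed to between 103599 and 139212 TPM in WT and between 141597 and 154082 TPM in the labelled *Sirt6* KO. None of these 5 was called, and the groups overlapped in 4 of them. The 3 satellite cell markers (*Pax7*, *Myf5*, *Calcr*) summed to between 1.65 and 3.09 TPM in WT and between 3.46 and 5.14 in the labelled *Sirt6* KO. Of these 3, 2 were called higher, and the other had a log2 fold change of -0.63 and was not called. WT library 3 had the lowest sum of all 6 libraries in each of the slow fibre, adipocyte, endothelial, fibroblast, macrophage, Schwann cell and erythroid lists. Its slow fibre markers, for example, summed to 79.5 TPM, where the other WT libraries had 4566 and 3616 and the labelled *Sirt6* KO libraries between 265 and 2222. No marker of these lists was at 0 in all libraries. The part of these differences in the results below was not tested. In whole muscle, fewer cells of a type and less RNA per cell cannot be told apart.

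Of the 10 clock loop genes, *Per2*, *Ciart* and *Usp2* fell in the libraries labelled *Sirt6* KO, and none rose. *Per2* was 2.81-fold lower, *Ciart* 3.29-fold lower and *Usp2* 2.70-fold lower. The 3 activators and the repressors *Per1*, *Per3*, *Cry1* and *Cry2* did not pass the test, with log2 fold changes between -0.46 and 0.25. Lower calls thus made up 3 of 10 members, or 30%, against 8.39% of all genes tested, and higher calls 0 of 10 against 7.85%. The members were chosen with results of these data known, and no test was made on this share. The median log2 fold change was -0.22 over the members and -0.02 over all genes tested. The WT and labelled *Sirt6* KO libraries did not overlap in 3 of 10 members, a share below the 40.0% of all genes tested without overlap, and these 3 were the genes that were called. The count of 3 depended on single libraries, as did the lower calls over all genes. The count was 0 without labelled *Sirt6* KO library 1 or library 3, where all genes gave 2 and 5 in place of 1158. It was 1 without library 2 of that group or without WT library 1 or 2 (442, 259 and 153 over all genes). Without WT library 3 it was 3, beside 2219 over all genes.

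**Figure D1:**
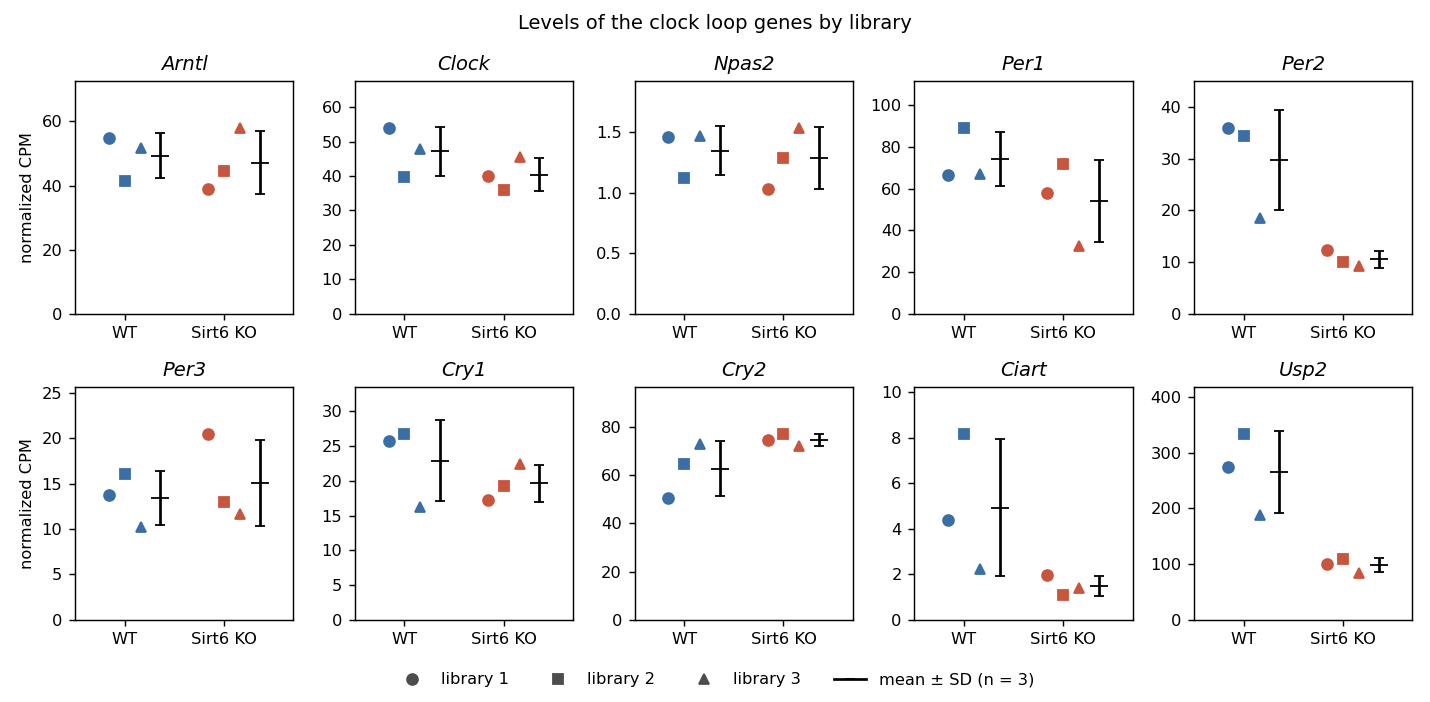
Normalized CPM (vertical axes, from 0) of the 10 clock loop genes in the 3 WT libraries (blue) and the 3 labelled *Sirt6* KO (red), with each library's marker and, beside it, the mean ± SD (n = 3). The red points lie below all blue points in *Per2*, *Ciart* and *Usp2* only, and WT library 3 (triangle) is the lowest blue point in each of these.

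The plot of levels by library shows all 60 values. The fold changes, with the fits that leave out a single library, are given in the plot of fold changes.

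**Figure D2:**
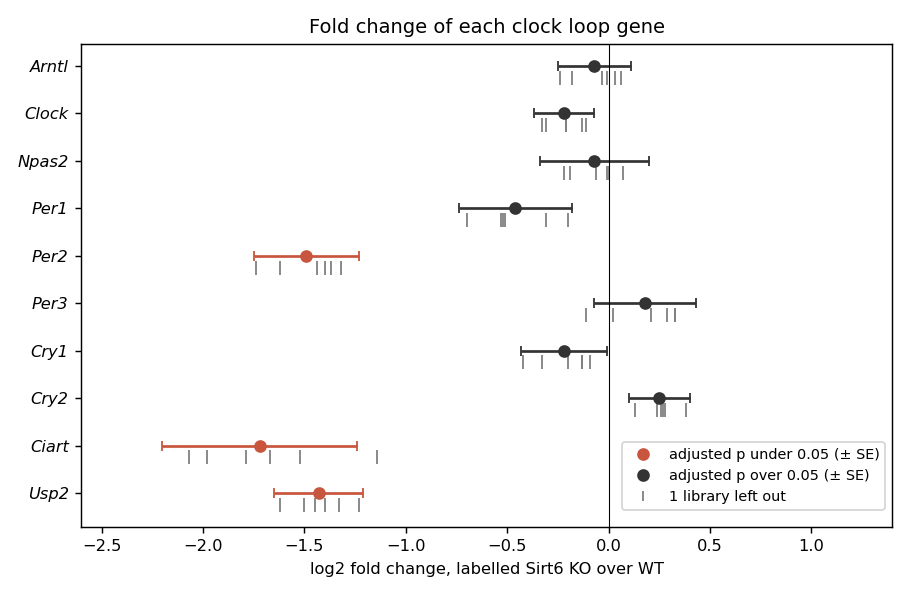
Log2 fold change (labelled *Sirt6* KO over WT, horizontal axis) of each clock loop gene with its standard error. Red points have an adjusted p under 0.05, and the grey ticks below each point are the 6 fits that leave out 1 library. The ticks of *Per2*, *Ciart* and *Usp2* all lie at or below -1.14, while those of the other 7 genes lie between -0.70 and 0.38.

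Sequences upstream of an annotated start of 5 of these genes are shown because the loop acts through short promoter elements. *Ciart* and *Usp2*, which both fell, differ in the elements found in the windows searched. The sequences are from RefSeq on GRCm38.p6, in windows from 250 bases before to 50 after an annotated start. Windows were found for 9 of the 10 genes (all but *Per2*), 13 in all, since *Arntl*, *Clock* and *Per1* have several windows. Searched on both strands were the E-box CACGTG, the E′-box CACGTT, the D-box TTATGTAA, the CRE TGACGTCA, its half-site TGACG (which lies within the CRE) and the RRE core TAGGTCA. Capitals mark the matches in each 100-base stretch, written 5′ to 3′ on the gene's strand. *Ciart* is at chr3:95882259-95882358 (minus strand, bases -130 to -31 from the start), *Cry1* at chr10:85185055-85185154 (minus, -100 to -1), *Per1* at chr11:69098769-69098868 (plus, -180 to -81), *Per3* at chr4:151044786-151044885 (minus, -220 to -121) and *Usp2* at chr9:44084821-44084920 (plus, -99 to the first transcribed base).
Ciart: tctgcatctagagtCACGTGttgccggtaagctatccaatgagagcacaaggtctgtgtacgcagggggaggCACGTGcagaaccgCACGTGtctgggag
Cry1: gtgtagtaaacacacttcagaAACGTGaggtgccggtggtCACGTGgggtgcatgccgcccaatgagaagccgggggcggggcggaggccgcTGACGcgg
Per1: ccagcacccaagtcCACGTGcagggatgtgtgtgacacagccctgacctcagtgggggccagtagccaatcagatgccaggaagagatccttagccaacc
Per3: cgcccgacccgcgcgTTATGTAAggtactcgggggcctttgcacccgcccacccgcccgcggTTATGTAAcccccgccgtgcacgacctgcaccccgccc
Usp2: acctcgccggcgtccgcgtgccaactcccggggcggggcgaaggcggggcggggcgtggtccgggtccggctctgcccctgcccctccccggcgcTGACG

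*Ciart* held 3 E-boxes, and *Per1* and *Cry1* held 1 each, in windows of which 7.15% of all 32851 have at least 1. *Cry1* also held an E′-box, as did *Cry2* (4.68% of all windows). *Per3* held 2 D-boxes, an element bound by the PAR-bZIP output factors, found in 0.938% of windows. The CRE half-site was found at *Per1* (both windows), *Cry1*, *Cry2* and *Usp2*, against 20.8% of all windows, and the full CRE (1.79% of windows) in no member's window. At the second *Arntl* start an RRE core lay 31 to 37 bases into the transcript, where 2.61% of windows have one. Of the called genes with a window, *Ciart* had E-boxes and *Usp2* had the CRE half-site but no E-box in this window. *Per1* and *Cry1* had an E-box and were not called. The *Usp2* window begins at base 44084670, inside the gene, which begins at 44067021, so sequence upstream of the gene's first base was not searched. Windows of *Arntl*, *Clock*, *Npas2* and *Per1* also lie inside the annotated gene. Whether these elements bear on the calls was not tested. A match is a description of the letters and not of a bound site.

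None of the 3 activators passed the test. *Arntl* (NCBI gene 11865, chromosome 7, 113178471 to 113314126), the loop's obligate activator, was at 54.9, 41.5 and 51.7 CPM in WT and at 38.8, 44.5 and 58.1 in the labelled *Sirt6* KO. The lowest and the highest of the 6 values both came from labelled *Sirt6* KO libraries, and the groups overlapped. On the log2 scale the groups differed by -0.07 ± 0.18 (standard error; adjusted p = 0.815), with a sign that turned in the fits without WT library 1 (0.03) and without labelled *Sirt6* KO library 1 (0.06). An antisense gene, *Gm45355*, shares exon sequence with *Arntl* in GENCODE M21 and is not in the deposited table. *Clock* (gene 12753, chromosome 5, 76209868 to 76305603), which encodes the partner of ARNTL, was at 54.1, 39.8 and 47.8 CPM in WT and at 40.0, 35.9 and 45.4 in the labelled *Sirt6* KO (log2 fold change -0.22 ± 0.15, adjusted p = 0.307). The longest *Clock* transcript has a GC content of 40.9%, under the median of 49.8% over genes tested, and with the trend over GC content removed the value was 0.07. *Npas2* (gene 18143, chromosome 1, 39193702 to 39363240), the paralog of *Clock*, was the least abundant member per transcript length. It was at 1.46, 1.12 and 1.47 CPM in WT and 1.03, 1.29 and 1.54 in the labelled *Sirt6* KO (log2 fold change -0.07 ± 0.27, adjusted p = 0.868; 0.07 without labelled *Sirt6* KO library 1). It rested on 53 to 85 counts per library, for which counting alone gives a coefficient of variation of 11.8%, against 14.5% between WT libraries and 20.2% between those labelled *Sirt6* KO.

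The *Per* genes encode the period proteins, which bind CRY and carry the repression. *Per2* (gene 18627, chromosome 1, 91415977 to 91459351) was at 36, 34.4 and 18.5 CPM in WT and at 12.3, 10 and 9.24 in the labelled *Sirt6* KO. Every labelled *Sirt6* KO library was below every WT library, and WT library 3 lay closer to the labelled *Sirt6* KO than to the other WT libraries. The mean fell from 29.6 ± 9.67 to 10.5 ± 1.6 (SD over 3 libraries), that is by -1.49 ± 0.26 on the log2 scale. The edgeR test gave an adjusted p of 0.0166, which placed *Per2* at 468 of 13801 by unadjusted p. The two-sided exact permutation test over the 6 libraries gave p = 0.1, the smallest that 3 against 3 allow. The log2 fold change lay between -1.74 and -1.32 in the 6 fits that left out a library. With no overlap between the groups, its direction could hardly turn in these fits. The adjusted p exceeded 0.05 in 5 of them, at 0.0593 and 0.0589 without WT libraries 1 and 2 and at 0.0619, 0.0512 and 0.0818 without labelled *Sirt6* KO libraries 1, 2 and 3, and was 0.00408 without WT library 3.

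*Per1* (gene 18626, chromosome 11, 69095108 to 69109965), an acutely inducible member of the family, was at 66.7, 89.4 and 67.1 CPM in WT and at 58.0, 71.7 and 32.6 in the labelled *Sirt6* KO. The groups overlapped through labelled *Sirt6* KO library 2, and library 3 of that group stood lowest. On the log2 scale it differed by -0.46 ± 0.28 (adjusted p = 0.271), and by -0.20 without labelled *Sirt6* KO library 3. *Per3* (gene 18628, chromosome 4, 150997018 to 151044707), which is largely dispensable for rhythm in mice, was at 13.8, 16.1 and 10.2 CPM in WT and at 20.5, 13.0 and 11.7 in the labelled *Sirt6* KO. Here labelled *Sirt6* KO library 1 was the highest of all, and the other two lay within the WT range. Its difference of 0.18 ± 0.25 on the log2 scale (adjusted p = 0.648) became -0.11 without that library. Of the 3 *Per* genes, *Per2* alone passed the test.

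The cryptochromes *Cry1* and *Cry2* encode the strongest direct inhibitors of the ARNTL pairs. *Cry1* (gene 12952, chromosome 10, 85131700 to 85185054) was at 25.7, 26.8 and 16.2 CPM in WT and at 17.2, 19.3 and 22.4 in the labelled *Sirt6* KO. WT library 3 was the lowest of the 6 and the other WT libraries were the highest (log2 fold change -0.22 ± 0.21, adjusted p = 0.468, and -0.42 with an adjusted p of 0.052 without WT library 3). *Cry2* (gene 12953, chromosome 2, 92403646 to 92434085) was at 50.3, 64.4 and 73.0 CPM in WT and at 74.5, 77.1 and 72.0 in the labelled *Sirt6* KO, where it was the least variable member, with a coefficient of variation of 3.44%. It differed by 0.25 ± 0.15 on the log2 scale (adjusted p = 0.256), by 0.38 without WT library 3 and by 0.05 with the trend over GC content removed.

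*Ciart* (gene 229599, chromosome 3, 95878500 to 95882257), which encodes a repressor of the ARNTL pairs and holds 3 E-boxes in the stretch shown above, was at 4.37, 8.17 and 2.22 CPM in WT and at 1.98, 1.09 and 1.4 in the labelled *Sirt6* KO. The groups did not overlap, but WT library 3 and labelled *Sirt6* KO library 1 were close, and the WT values were the most variable of any member (coefficient of variation 61.3%). The mean fell from 4.92 ± 3.01 to 1.49 ± 0.454 (SD over 3 libraries), or by -1.72 ± 0.48 on the log2 scale. The edgeR test gave an adjusted p of 0.049 and the exact permutation test the smallest p possible, 0.1. The counts behind it were 66 to 385 per library. This call was the least stable of the 3. It was lost in 5 of the 6 fits that left out a library, with an adjusted p of 0.113 and 0.132 without WT libraries 1 and 2 and of 0.104, 0.125 and 0.154 without labelled *Sirt6* KO libraries 1, 2 and 3, and held without WT library 3 (-2.07, adjusted p = 0.0101). Without WT library 2 the log2 fold change was -1.14. Of the 8 other alternatives, 2 kept it (DESeq2 and a minimum of 10 counts in every library). It was lost with DESeq2's size factors (0.0508), without a filter on low counts (0.0605), with the trend over GC content removed (0.0611) and with the replicate number as a block (0.0802). It was also lost with limma on FPKM, at a log2 difference of -0.99 (adjusted p = 0.105) with a pseudocount of 1 and of -1.49 (adjusted p = 0.077) with a pseudocount of 0.1.

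*Usp2* (gene 53376, chromosome 9, 44067021 to 44095627) was the most abundant member. It was at 274, 334 and 188 CPM in WT and at 101, 109 and 84.9 in the labelled *Sirt6* KO. The groups did not overlap, with the lowest WT value, that of library 3, above the highest labelled *Sirt6* KO value. The mean fell from 265 ± 73.3 to 98.3 ± 12.3 (SD over 3 libraries), or by -1.43 ± 0.22 on the log2 scale. The edgeR test gave an adjusted p of 0.0138 and the exact permutation test the smallest p possible, 0.1, with *Usp2* at place 255 by unadjusted p. It held in 4 of the 6 fits that left out a library and exceeded 0.05 without labelled *Sirt6* KO library 1 (0.0622) and without library 3 of that group (0.0729), with log2 fold changes between -1.62 and -1.23. In GENCODE M21 an exon of *Usp2* overlaps exons of 2 genes on the other strand, neither of which is in the deposited table. Since the strand setting of the counting is not stated, reads from that strand cannot be told apart.

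Per transcript length, the members spanned a range from 0.511 TPM (*Npas2*) to 202 TPM (*Usp2*) over the libraries. In WT the order of the mean TPM was *Usp2* (158 ± 54.4), *Arntl* (37.3 ± 7.03), *Per1* (35.1 ± 7.76), *Cry2* (33.9 ± 3.28), *Cry1* (17 ± 5.69), *Per2* (11.4 ± 4.64), *Clock* (10.7 ± 2.28), *Ciart* (7.92 ± 5.07), *Per3* (4.93 ± 1.46) and *Npas2* (0.703 ± 0.122; SD, n = 3 each). Neighbours in this order overlapped except *Usp2* and *Arntl*, *Cry2* and *Cry1*, and *Per3* and *Npas2*. In the labelled *Sirt6* KO, *Usp2* was still first, at 55.5 ± 7.82 TPM, and *Npas2* last, at 0.615 ± 0.108, while *Per2* moved from place 6 to place 8, at 3.66 ± 0.675, below *Per3* at 5.11 ± 1.78. *Npas2* was far below *Clock* in each library, with a mean TPM ratio of 0.066 in WT and 0.0728 in the labelled *Sirt6* KO.

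**Figure D3:**
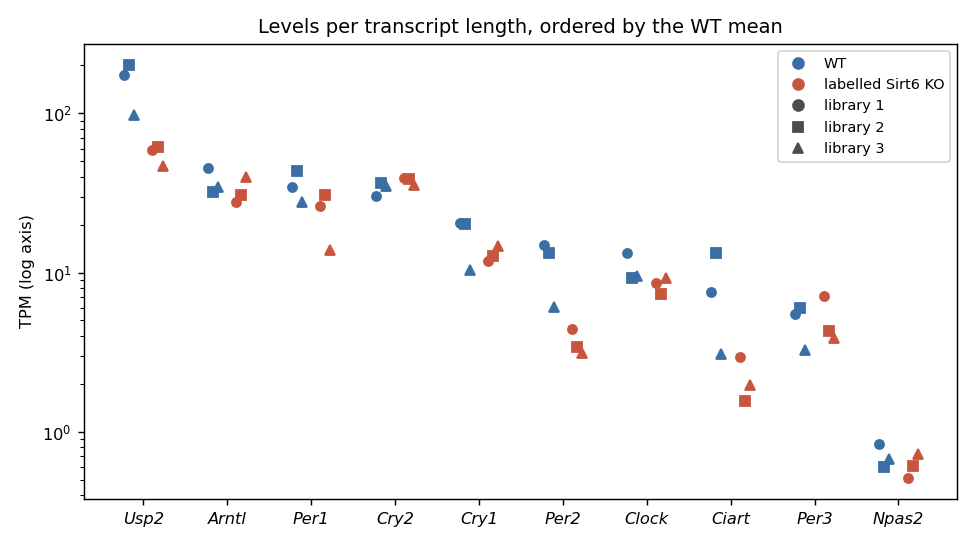
Deposited TPM (log axis) of the 10 clock loop genes in each library, WT in blue and labelled *Sirt6* KO in red, ordered by the WT mean. *Usp2* is highest and *Npas2* lowest in all 6 libraries, and the red points of *Per2*, *Ciart* and *Usp2* lie below the blue.

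For the question of activators against repressors, the mean log2 CPM of the 3 activators minus that of the 6 repressors was -0.55, -1.28 and -0.22 in WT and -0.65, -0.31 and 0.18 in the labelled *Sirt6* KO. The groups overlapped, and their medians differed by 0.24 on this scale, less than the pooled SD of 0.48. The activators had a median log2 fold change of -0.07 and the repressors one of -0.34, with 2 of the 6 repressors called lower. Among single pairs, the TPM ratio of *Arntl* to *Per2* was 3.06, 2.42 and 5.60 in WT and 6.32, 8.92 and 12.6 in the labelled *Sirt6* KO. It was higher in every labelled *Sirt6* KO library, with a log2 difference of 1.37 ± 0.46 (standard error). The two-sided exact permutation test gave p = 0.1, and 0.6 after adjustment over the 6 pairs of *Arntl* with a repressor. The ratio of *Arntl* to *Ciart* overlapped (6.03, 2.44 and 11.2 against 9.43, 19.7 and 20.2), with a log2 difference of 1.5 ± 0.73 (exact permutation p = 0.2, adjusted 0.6). Those to *Per1*, *Per3*, *Cry1* and *Cry2* overlapped too, with log2 differences between -0.35 and 0.44.

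Within the *Per* family the ratio of *Per3* to *Per2* separated the groups most. In TPM it was 0.371, 0.453 and 0.534 in WT and 1.62, 1.26 and 1.23 in the labelled *Sirt6* KO, so that *Per2* was the more abundant of the pair in each WT library and *Per3* in each library labelled *Sirt6* KO. The log2 difference was 1.60 ± 0.20 (standard error; two-sided exact permutation p = 0.1, the smallest possible, and 0.333 adjusted over 5 paralog pairs). The ratio of *Per1* to *Per2* was 2.32, 3.25 and 4.54 against 5.89, 8.96 and 4.42 and overlapped, with a log2 difference of 0.92 ± 0.41. The other paralog pairs (*Npas2* to *Clock*, *Cry1* to *Cry2* and *Per1* to *Per3*) overlapped as well. No pair could reach p under 0.05 in this design.

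**Figure D4:**
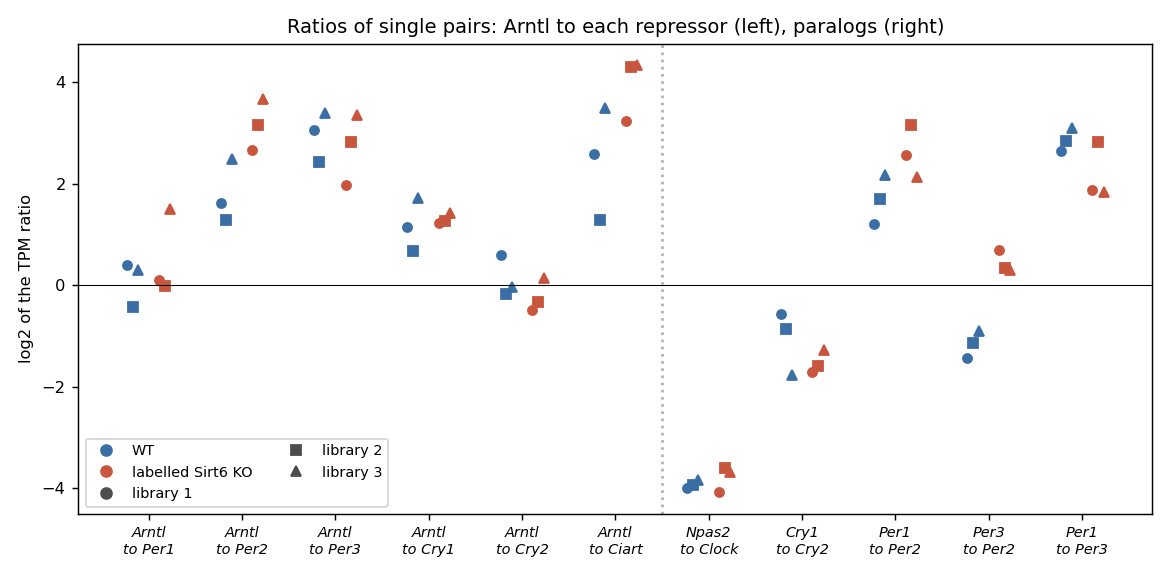
Log2 of the TPM ratio (vertical axis) in each library for *Arntl* to each of the 6 repressors and for 5 pairs of paralogs, WT in blue and labelled *Sirt6* KO in red. Only *Arntl* to *Per2* and *Per3* to *Per2* show all red points above all blue, and the latter lies below 0 in WT and above 0 in the labelled *Sirt6* KO.

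Some members also varied together from library to library, which is given as a description of 6 points. *Arntl* and *Npas2* had a Pearson correlation of 0.97 over the 6 libraries on log2 CPM, and *Npas2* was the gene most like *Arntl* among the 11613 other genes with a mean of at least 1 CPM. *Clock* was at place 128 (0.74), *Per3* was 63rd from the opposite end (-0.78) and *Per1* stood at -0.56. The other members lay between, with *Cry2* at -0.35, *Ciart* at -0.17, *Usp2* at -0.04, *Per2* at -0.01 and *Cry1* at 0.20. The repressors thus did not move as a set against *Arntl*. After *Npas2*, the genes most like *Arntl* were *Hoxc5*, *Cep162*, *Syne2* and *Lrrc57* (0.97 to 0.94). The most opposite were *Pcdhga2*, *Haus8*, *Hmgb2*, *Fam234a* and *3632451O06Rik* (-0.98 to -0.93 in r), of which *Pcdhga2* shares exons with its gene cluster and is uncertain. In all, 128 genes correlated with *Arntl* at 0.74 or above. None of the 10 most alike or most opposite was called between the groups. Their choice made a call unlikely, since *Arntl* itself hardly differed between the groups (log2 fold change -0.07). *Per2*, *Ciart* and *Usp2* followed the groups instead, with correlations of 0.98 (*Per2* and *Usp2*), 0.93 (*Per2* and *Ciart*) and 0.91 (*Ciart* and *Usp2*) that include the difference between the groups. WT library 3 was the lowest WT library in each of the 3, and its sums of the slow fibre markers and of the cell types other than muscle, given above, were the lowest too, while its skeletal muscle markers summed to the highest WT value. Without it all 3 were still called lower. WT libraries 1 and 2 had higher sums than every labelled *Sirt6* KO library in the slow fibre, endothelial, fibroblast, Schwann cell and erythroid lists. In the adipocyte and macrophage lists they overlapped with the labelled *Sirt6* KO. That fit therefore cannot show what part cell content has in these falls, which was not tested.

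**Figure D5:**
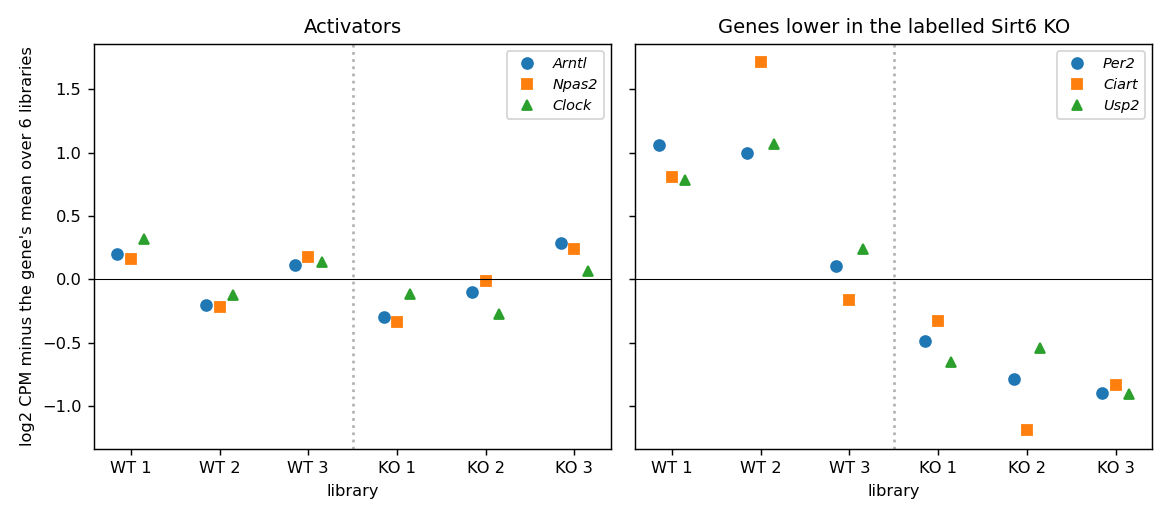
Log2 CPM of each gene minus its mean over the 6 libraries (vertical axis), by library, for the activators (left) and for the 3 genes lower in the labelled *Sirt6* KO (right). *Arntl* and *Npas2* move together without following the groups, whereas *Per2*, *Ciart* and *Usp2* are above or near their mean in WT and below it in the labelled *Sirt6* KO, with WT library 3 between.

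Of 46 other genes of the clock pathway, 45 were tested, and 11 were called lower and 3 higher in the labelled *Sirt6* KO, with a median log2 fold change of -0.12. Over all genes tested, 8.39% were called lower and 7.85% higher. The lists were written with earlier results of these data known. Among the 10 output factors 3 were lower and none higher: *Nr1d2* (REV-ERB beta, a repressor of *Arntl*; -0.67, standard error 0.12, adjusted p = 0.017), *Rora* (an activator of *Arntl*; -0.85, standard error 0.18, adjusted p = 0.0231) and *Nfil3* (a repressor at D-boxes; -1.85, standard error 0.39, adjusted p = 0.0242). *Nr1d1* (REV-ERB alpha) was at a mean of 39.9 CPM in WT and 80.8 in the labelled *Sirt6* KO and *Dbp*, an activator at D-boxes, at 10.7 and 5.96, and neither passed the test (adjusted p = 0.151 and 0.153). Among the 12 kinase, phosphatase, ligase and deubiquitinase genes tested, *Ppp1cb*, a phosphatase catalytic subunit, was lower (-0.75, adjusted p = 0.015) and *Csnk1d*, a kinase of the PER proteins, was higher (0.43, adjusted p = 0.047). Among 13 coregulators, *Sfpq* (-0.73, adjusted p = 0.0132) and *Sirt1* (-0.75, adjusted p = 0.0178) were lower and *Hdac3*, the histone deacetylase that works with REV-ERB, was higher (0.78, adjusted p = 0.029). Among the 10 genes of clock input through cAMP, glucocorticoid or heat, 5 were lower, of which those with the smallest adjusted p were *Crem* (-2.15, adjusted p = 0.00873), the glucocorticoid receptor gene *Nr3c1* (-0.97, adjusted p = 0.011) and *Creb1* (-0.96, adjusted p = 0.0144), and 1 was higher. The salt-inducible kinase gene *Sik1*, named after its values were seen, had the largest fall of the 5 (-2.37, adjusted p = 0.0229). The 1 called higher, also named after its values were seen, was *Crtc1* (0.98, adjusted p = 0.0213). The counts over all 45 genes depended on single libraries, as did those over all genes tested, given in brackets. Without labelled *Sirt6* KO library 1 or 3, 1 was lower and none higher (2 and 6, or 5 and 8). Without library 2 of that group, 6 were lower and 2 higher (442 and 431). They were 7 and none without WT library 1 (259 and 181) and 2 and none without WT library 2 (153 and 96). Without WT library 3, 10 were lower and 6 higher (2219 and 2363). With the trend over GC content removed, 5 of the 45 were lower and 2 higher (465 and 451).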

How the data were processed

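RNA-seq libraries of GAS muscle from WT mice (3 libraries) and mice labelled *Sirt6* KO (3 libraries) were grouped, numbered and matched to table columns by their labels. The read counts that the authors deposited are whole numbers per RefSeq gene from StringTie on mm10 (GRCm38), without scaling between libraries. The FPKM that the authors deposited are scaled to length and depth, and the TPM that the authors deposited to a fixed sum. The submitters' processing notes name HISAT2 2.1.0, Bowtie2 2.3.4.1 and StringTie 2.1.3b, whereas the reporting summary names STAR. The labels and the methods name different TruSeq kits, and no strand setting is stated for the counting.

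Counts were fitted in R 4.3.3 with edgeR 4.0.16 (filterByExpr, 13801 genes; TMM; quasi-likelihood test; group only) and adjusted by Benjamini-Hochberg. Standard errors are the log2 fold change divided by the root of the F statistic. Permutation over libraries was exact, with both sides counted, on log2 values (SciPy 1.17.1). The alternatives were DESeq2 1.42.0, its size factors, other filters, limma 3.58.1 with pseudocounts of 1 and 0.1 on the log2 scale of the FPKM after quantile normalization, a block for the replicate number, each library left out, and a lowess trend over GC content (span 0.3, known for 97.2% of genes tested). The fits were tested on simulated data. The named genes were the 10 members, *Sirt6*, in each pathway list up to 3 genes of smallest adjusted p under 0.05 besides *Nr1d1*, *Dbp*, *Nfil3* and *Arntl2*, and the 5 genes most and the 5 least like *Arntl*. *Sik1* and *Crtc1* were added after their values were seen. Members and lists were chosen with earlier results of these data known.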

Additional observations from a re-analysis of the deposited data

How the results depend on the processing

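The direction of the 3 called members held under every alternative run. In these 3 the groups did not overlap, so leaving out a library could hardly turn it. Counts of genes past an adjusted p of 0.05 moved most. With DESeq2 they were 1674 higher and 1746 lower over all genes and 6 pathway genes higher, and with the trend over GC content removed 451 higher, 465 lower and 5 pathway genes lower. With each library left out they ranged from 6 to 2363 higher and from 2 to 2219 lower over all genes, from 0 to 3 members lower, and from 0 to 6 higher and 1 to 10 lower among the pathway genes. The lowest came without labelled *Sirt6* KO library 1 or 3, and the highest over all genes without WT library 3. No fit called a member higher. The difference in activators minus repressors lay between 0.07 and 0.61 when a library was left out. The sign turned for *Arntl* without WT library 1 (0.03) and without labelled *Sirt6* KO library 1 (0.06), for *Npas2* (0.07) and *Per3* (-0.11) without the latter, and for *Clock* with the GC trend removed (0.07), none of which was called in any fit, and the cause was not tested. Over the fits that left out a library, *Arntl* ranged from -0.24 to 0.06, *Npas2* from -0.22 to 0.07 and *Per3* from -0.11 to 0.33 in log2 fold change. With the replicate number as a block (replicate block), 2 members were lower, since *Ciart* had an adjusted p of 0.0802. Libraries with the same number correlated at -0.106, 0.26 and 0.161 in their deviations from the group means. Those with different numbers correlated at between -0.34 and 0.209, so the ranges overlapped, though 0.26 was the highest value. The number was not taken to pair the libraries. Counting error was largest for *Npas2* and *Ciart*, at a coefficient of variation of 11.8% and 7.79%, and for *Ciart* the spread between libraries was several times larger.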

Other observations

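*Arntl2*, the paralog of *Arntl*, was at 1.16, 0.848 and 1.34 CPM in WT and at 1.5, 1.77 and 1.34 in the labelled *Sirt6* KO. The groups met at 1.34 CPM, and the log2 fold change of 0.46 (standard error 0.27) did not pass edgeR's quasi-likelihood test (adjusted p = 0.27). *Fbxl21*, a ligase gene of the pathway list, had at most 13 counts in a library and was not tested. An exon of *Cry2* overlaps *D930015M05Rik* on the other strand, which has 0 counts in every library of the deposited table.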
